A study of Mus musculus with 12 samples.

Results

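The 35 genes described here build, sense, move and oxidise cholesterol, and were followed in RNA-seq of primary microglia, the resident macrophages of the brain. They were chosen as a fixed list of gene symbols, with earlier results of these data known, and each symbol matched 1 row of the 48623 rows of the table. The list holds 18 enzymes of cholesterol synthesis, 6 genes of sterol sensing, 5 genes of the liver X receptors and efflux, 3 genes of esterification and oxysterol formation and 3 genes of lysosomal sterol handling. All 35 passed the filter on low values described below, and none of their 420 values in single libraries was at 0.

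Knock-in mice with the R47H allele of *Trem2* on both chromosomes (KI) and wild-type mice (WT), both on the C57BL/6J background, gave the microglia, which were left untreated or exposed for 48 h to IL-4, an anti-inflammatory cytokine, at 20 ng/ml. There were 4 groups of 3 libraries: untreated WT, WT with IL-4, untreated KI and KI with IL-4. The names pair an untreated with an IL-4 library through a T number, T13, T33 and T43 in WT and T15, T22 and T32 in KI, and each number is called a culture here, although neither the labels nor the methods define it. The cells were grown out of mixed glia from the cortex and hippocampus of newborn pups and freed from the astrocyte layer by mild trypsin. The methods describe WT cultures made from pooled pups of a litter, and cultures of single pups of the KI line that were genotyped afterwards. The study counts the sequenced samples as mice, with WT littermates of the KI mice as controls. The mouse R47H allele also lowers *Trem2* expression through a splice effect, so KI combines the substitution with reduced expression.

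Cholesterol is made from acetyl-CoA through the mevalonate pathway, squalene and lanosterol. When sterols in the endoplasmic reticulum are low, SCAP carries the SREBP factors to the Golgi, where they are released to switch on the synthesis enzymes, and INSIG proteins hold them back when sterols are high. Oxysterols such as 25-hydroxycholesterol bind INSIG and activate the liver X receptors, which drive sterol export through ABCA1 and ABCG1. Microglia take up lipid-rich debris, and TREM2 is one of their lipid-sensing receptors.

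Values are TPM, the share of transcripts scaled to 1 fixed total, as made by the authors. TPM are corrected for transcript length, so levels can be compared between genes, but they keep no read counts, and the depth behind a value is unknown. Differences were tested on log2(TPM + 1) with limma, over the 11204 genes whose mean exceeded 1.5, and are given as log2 differences on this scale, which understates changes of low genes. The genotype effect was tested by limma's moderated F-test on both KI against WT contrasts together, the IL-4 effect on both IL-4 contrasts together, and the interaction as their difference. A Benjamini-Hochberg adjusted p under 0.05 over all genes tested counted as past the threshold. Nothing in the sources states that the libraries of a group came from separate litters, so p-values measure the spread between these libraries. The main fit also treats all libraries as independent. If both libraries of a T number share a culture, its genotype p-values are too small. With libraries of a number treated as correlated, 77 genes passed for genotype in limma's F-test, against 185 in the main fit.

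*Trem2* was between 1328 and 1886 TPM in untreated WT, 1190 and 1550 TPM in WT with IL-4, 325 and 770 TPM in untreated KI and 428 and 634 TPM in KI with IL-4. Every KI library thus lay below every WT library, the direction that the labels imply. Values per gene do not show the allele itself or whether both copies carry it. The libraries also differed in cell type markers. The summed level of 12 astrocyte markers was 177 to 718 TPM in untreated WT and 186 to 645 TPM in WT with IL-4, against 228 to 4960 TPM in untreated KI and 629 to 3808 TPM in KI with IL-4. The top values of both KI groups were culture T15, in which 11 of the 12 astrocyte markers had their highest library, and the other KI libraries reached 687 TPM at most. The summed level of 20 microglial markers was 28620 to 31871 TPM in untreated WT and 34764 to 39264 TPM in WT with IL-4, against 12717 to 25741 TPM in untreated KI and 22052 to 30076 TPM in KI with IL-4, and no microglial marker was at 0 in any library. Of the microglial markers 19 were tested, of which 5 were lower in KI by limma's F-test and 0 higher, and of 10 mural cell and fibroblast markers 5 were tested, of which 2 were higher in KI. The summed level of these 10 was 142 to 328 TPM in untreated WT and 238 to 617 TPM in WT with IL-4, against 1067 to 1327 TPM in untreated KI and 704 to 1198 TPM in KI with IL-4, so all 6 KI libraries lay above all 6 WT libraries. All 5 tested had an average difference above 0 in KI. Most of the sum came from *Acta2* and *Tagln*, genes of contractile cells, and the collagen genes were also higher in every untreated KI than in every untreated WT library, at 6.14 to 24.3 against 2.93 to 4.43 TPM for *Col1a1*, 6.86 to 31.8 against 1.77 to 4.26 TPM for *Col1a2* and 13.9 to 20.1 against 1.14 to 7.80 TPM for *Col3a1*. With IL-4 all 3 were highest in WT T43, and the other 5 markers, *Dcn*, *Lum*, *Myh11*, *Pdgfrb* and *Rgs5*, were at 0 in some library. By immunostaining, the paper found nearly all cells of such cultures IBA1-positive. It reports microglial proportions much alike in WT and homozygous KI cultures, untreated and with IL-4. By RT-qPCR it also found some of these microglial markers, such as *C1qa*, *Cd68* and *Csf1r*, lower after *Trem2* knockdown. Their sum may therefore not measure cell content alone. In bulk RNA, fewer cells of a type and less RNA per cell cannot be told apart. The main genotype differences below are therefore also given without T15.

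Promoter sequence of RefSeq on GRCm38.p6 was at hand for 29 of the 35 genes, taken here as the 250 bases before a transcription start. Those of 4 members with 1 listed start are shown as examples picked with their values known: *Ch25h*, the gene that passed the test, and *Hmgcs1*, *Idi1* and *Insig1*, in which every untreated KI library lay above every untreated WT library. This also held for *Lss* and *Msmo1*, with 1 listed start each, which are not shown. Capitals mark 2 motifs on either strand, the CCAAT box (CCAAT or ATTGG), bound by NF-Y, and the core of the sterol regulatory element (TCACNCCAC or GTGGNGTGA), bound by SREBP.
*Hmgcs1*, chr13:119690101-119690350, plus strand: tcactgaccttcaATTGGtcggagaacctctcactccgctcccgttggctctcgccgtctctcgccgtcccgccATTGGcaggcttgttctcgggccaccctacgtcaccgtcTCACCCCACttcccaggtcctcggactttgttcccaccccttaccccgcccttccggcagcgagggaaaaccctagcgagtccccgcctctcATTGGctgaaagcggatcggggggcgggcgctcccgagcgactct
*Idi1*, chr13:8885356-8885605, plus strand: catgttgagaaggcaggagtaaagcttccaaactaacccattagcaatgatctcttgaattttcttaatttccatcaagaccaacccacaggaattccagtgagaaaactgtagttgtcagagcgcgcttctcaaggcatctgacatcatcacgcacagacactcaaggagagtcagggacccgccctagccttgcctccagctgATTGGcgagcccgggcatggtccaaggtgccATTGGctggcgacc
*Insig1*, chr5:28071162-28071411, plus strand: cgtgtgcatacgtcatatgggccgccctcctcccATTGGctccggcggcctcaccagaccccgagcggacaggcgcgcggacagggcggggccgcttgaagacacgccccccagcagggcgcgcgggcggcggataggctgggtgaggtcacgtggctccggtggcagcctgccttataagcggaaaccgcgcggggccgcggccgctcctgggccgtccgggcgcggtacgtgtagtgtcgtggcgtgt
*Ch25h*, chr19:34475149-34475398, minus strand: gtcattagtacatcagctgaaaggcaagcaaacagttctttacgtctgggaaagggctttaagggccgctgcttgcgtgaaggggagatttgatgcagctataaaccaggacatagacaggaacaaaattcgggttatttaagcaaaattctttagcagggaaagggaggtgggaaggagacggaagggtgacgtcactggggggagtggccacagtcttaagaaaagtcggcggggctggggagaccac

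*Hmgcs1* held 3 CCAAT boxes and, 137 bases before the start, the only sterol regulatory element core among the members, TCACCCCAC. *Idi1* held 2 CCAAT boxes and *Insig1* 1, whereas *Ch25h* held neither motif. Over the genes with sequence, a CCAAT box was found in 14 of 15 synthesis enzymes and in 23 of 29 members, against 37.5% of 27025 genes of the whole reference. The GC box (GGGCGG or CCGCCC), whose end bases can overlap those of a CCAAT box, was found in 14 of the 15 synthesis enzymes and 23 of the 29 members, against 35.4% of all genes. The reference was not limited to genes past the expression filter, which all members passed, and the share among the genes tested was not computed. A gene with several listed starts counted if the stretch before any of them matched. The sterol element core was present in 1.22% of all genes, and the STAT6 site (TTCNNNNGAA), the motif of the factor that IL-4 activates, in 6.76% of all genes and in 0 of the 29 members. A match is a run of letters and not a shown binding site, and a window without one says nothing of more distant sequence.

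**Figure D1:**
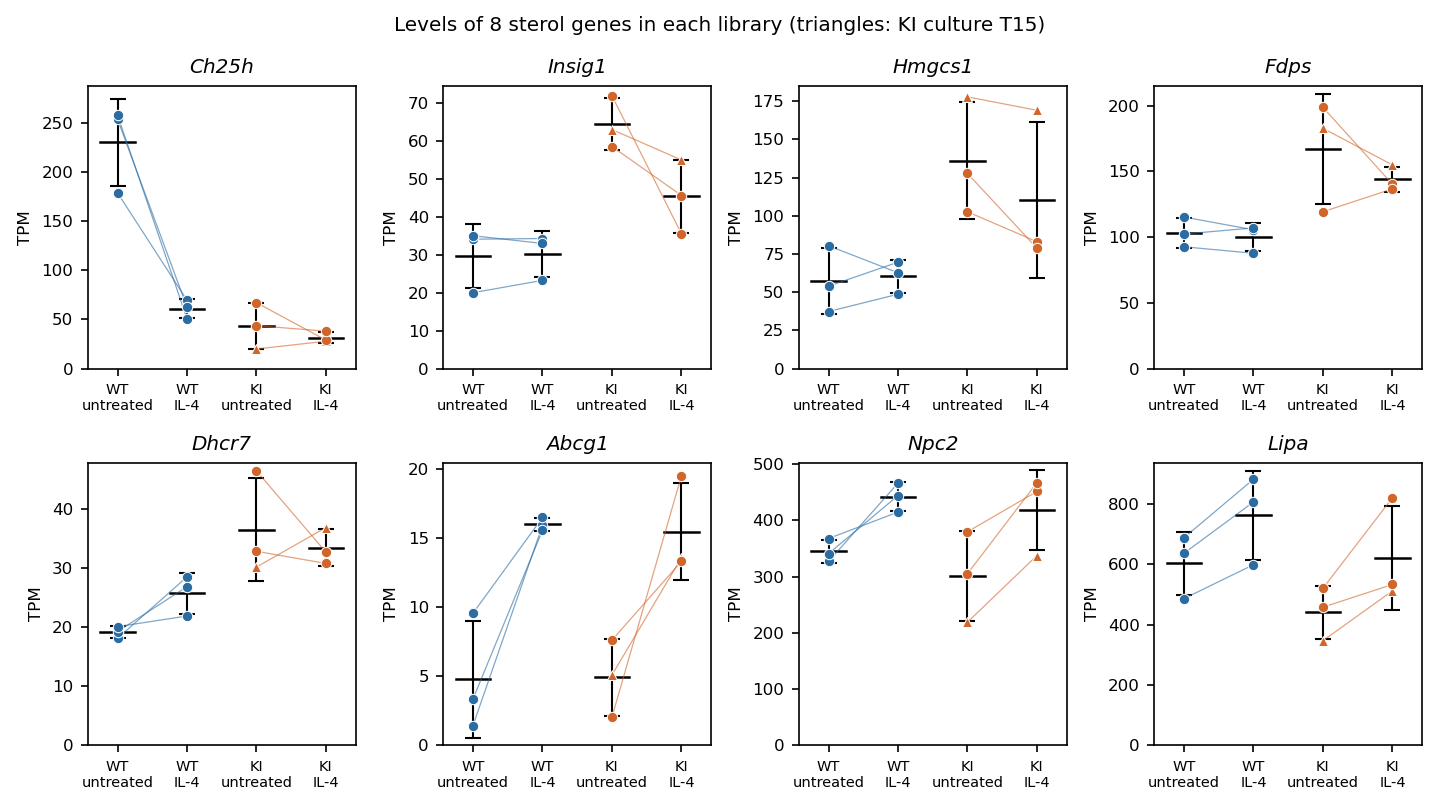
TPM (linear axis from 0) of 8 members in the 4 groups, 1 point per library, with the group mean as a bar and the SD as whiskers (n = 3); lines join libraries with the same T number and triangles are KI culture T15. *Ch25h* was high only in the 3 untreated WT libraries, *Insig1*, *Fdps* and *Dhcr7* were higher in every KI than in every WT library, and *Abcg1*, *Npc2* and *Lipa* were higher with IL-4 in all 6 cultures.

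*Ch25h* encodes cholesterol 25-hydroxylase, the enzyme of the endoplasmic reticulum that makes 25-hydroxycholesterol. It lies on chromosome 19 (GRCm38, 34473778 to 34475164, minus strand), has a single exon, and neighbours *Lipa* (34492318 to 34527474), another member. It was the only one of the 35 genes past the threshold for genotype and for IL-4. The paper already names *Ch25h*, from these same samples, among the genes lower in KI and among those lower with IL-4. Both calls are therefore not independent of the paper's. In untreated WT it stood at 179, 254 and 258 TPM in cultures T13, T33 and T43. In untreated KI it was at 19.9, 67.0 and 43.6 TPM in T15, T22 and T32. With IL-4 it was at 69.5, 62.5 and 50.7 TPM in the WT cultures and at 27.8, 28.9 and 38.0 TPM in the KI cultures, in the same order. The genotypes did not overlap without IL-4 nor with it, but the highest untreated KI library lay within the range of the IL-4-treated WT libraries.

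The mean of untreated WT was 230 ± 44.5 TPM (SD, n = 3), 5.29 times that of untreated KI (43.5 ± 23.5 TPM, SD, n = 3). With IL-4 the WT mean was 60.9 ± 9.53 TPM (SD, n = 3), 1.93 times the KI mean of 31.5 ± 5.62 TPM (SD, n = 3). *Ch25h* fell in KI by 1.72 on the log2 scale, averaged over treatments (standard error 0.24, limma's F-test, adjusted p = 0.00597). Among all genes tested, 0.357% were lower in KI by this test and 1.29% higher, and of the members 1 was lower and 0 were higher, although 9 members had a difference above 0 with an unadjusted p under 0.05, against 12.3% of all genes. Of the 185 genes past the threshold 78.4% were higher in KI, a share that was 60.0% with quantile normalization and 67.7% with median-ratio scaling. Without T15 the *Ch25h* difference was -1.45 (limma's F-test, adjusted p = 0.00615). Without WT culture T33 (adjusted p = 0.0879) or T43 (adjusted p = 0.0606) it was not past the threshold in limma's F-test, and with a microglial marker score as a covariate it was -1.10 (limma's F-test, adjusted p = 0.775). In that last fit 0 genes passed for genotype, against 596 with an unadjusted p under 0.05. T13 and T15 carry names of another form than the rest, and untreated *Ch25h* was lower in KI both within this pair and among the other 4 cultures.

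Microglial markers were lower in the KI libraries, as given above. Per 1000 TPM of the 20 microglial markers, a measure added after the values were seen, *Ch25h* was at 6.25 to 8.53 TPM in untreated WT and at 1.57 to 2.60 TPM in untreated KI. The groups with IL-4 were at 1.40 to 1.80 TPM in WT and 0.960 to 1.33 TPM in KI. The part of microglial content in the *Ch25h* difference was not tested by this ratio, and the fit with the marker score, given above, did not pass the threshold.

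Averaged over genotypes, *Ch25h* fell by 1.10 on the log2 scale with IL-4 (standard error 0.24, limma's F-test, adjusted p = 0.0351), while 0.143% of all genes tested were lower with IL-4 and 0.75% higher. Of the other members 0 were higher by this test, and 3 were above 0 with an unadjusted p under 0.05, against 5.13% of all genes. In the WT cultures the differences were -1.35, -2.00 and -2.33 for T13, T33 and T43. In the KI cultures they were 0.46, -1.19 and -0.19 for T15, T22 and T32, so 5 of 6 cultures had a lower value with IL-4. The WT mean was 3.78 times higher without IL-4 and the KI mean 1.38 times. The interaction, the KI response minus the WT response, was 1.59 (standard error 0.48, 95% interval 0.56 to 2.62). It had an unadjusted p of 0.00530 and an adjusted p of 1.00 in limma's test, so a different response of the genotypes was not shown once all genes were counted. At the interaction 0% of the 11204 genes passed the threshold, and 3.19% had an unadjusted p under 0.05, as had 2 of the 35 members, *Ch25h* and *Mylip*. The call for IL-4 was lost when any 1 WT culture was left out (adjusted p between 0.133 and 0.572, limma's F-test) or KI culture T32 (adjusted p = 0.0939), whereas without T15 the difference was -1.29 (adjusted p = 0.00139). It was also lost with quantile normalization (limma's F-test, adjusted p = 0.0687) and median-ratio scaling (adjusted p = 0.0570). The same held with no variance trend, with no expression filter and in KI libraries alone. The call passed in 10 of 19 alternatives.

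The 18 synthesis enzymes lay mostly higher in KI, but none passed limma's F-test for genotype, with adjusted p-values from 0.0699 to 0.799 and 8 of the 18 at an unadjusted p under 0.05, against 16.1% of all genes. Their average genotype difference was above 0 in 17 of 18, with *Ebp* the exception, and had a median of 0.58 and a range from -0.31 to 1.05. Over all genes tested 63.1% had a difference above 0 and the median was 0.13, and 27 of the 35 members were above 0. Quantile normalization moved the median of all genes to -0.08 and that of the enzymes to 0.44, and median-ratio scaling to 0.02 and 0.46. Relative to all genes the enzymes thus stood 0.45 higher without rescaling, and 0.51 and 0.44 higher under these scalings. Without T15 the enzyme median was 0.38 against 0.10 for all genes, 15 of 18 were above 0, and 61.2% of all genes and again 27 members were above 0. With an astrocyte marker score as a covariate the medians were 0.37 and 0.08, and with a microglial marker score 0.31 and 0.12. In the fit with the microglial score 13 of the 18 enzymes were above 0, and 1 of the 18 had an unadjusted p under 0.05 in limma's F-test, against 5.32% of all genes.

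**Figure D2:**
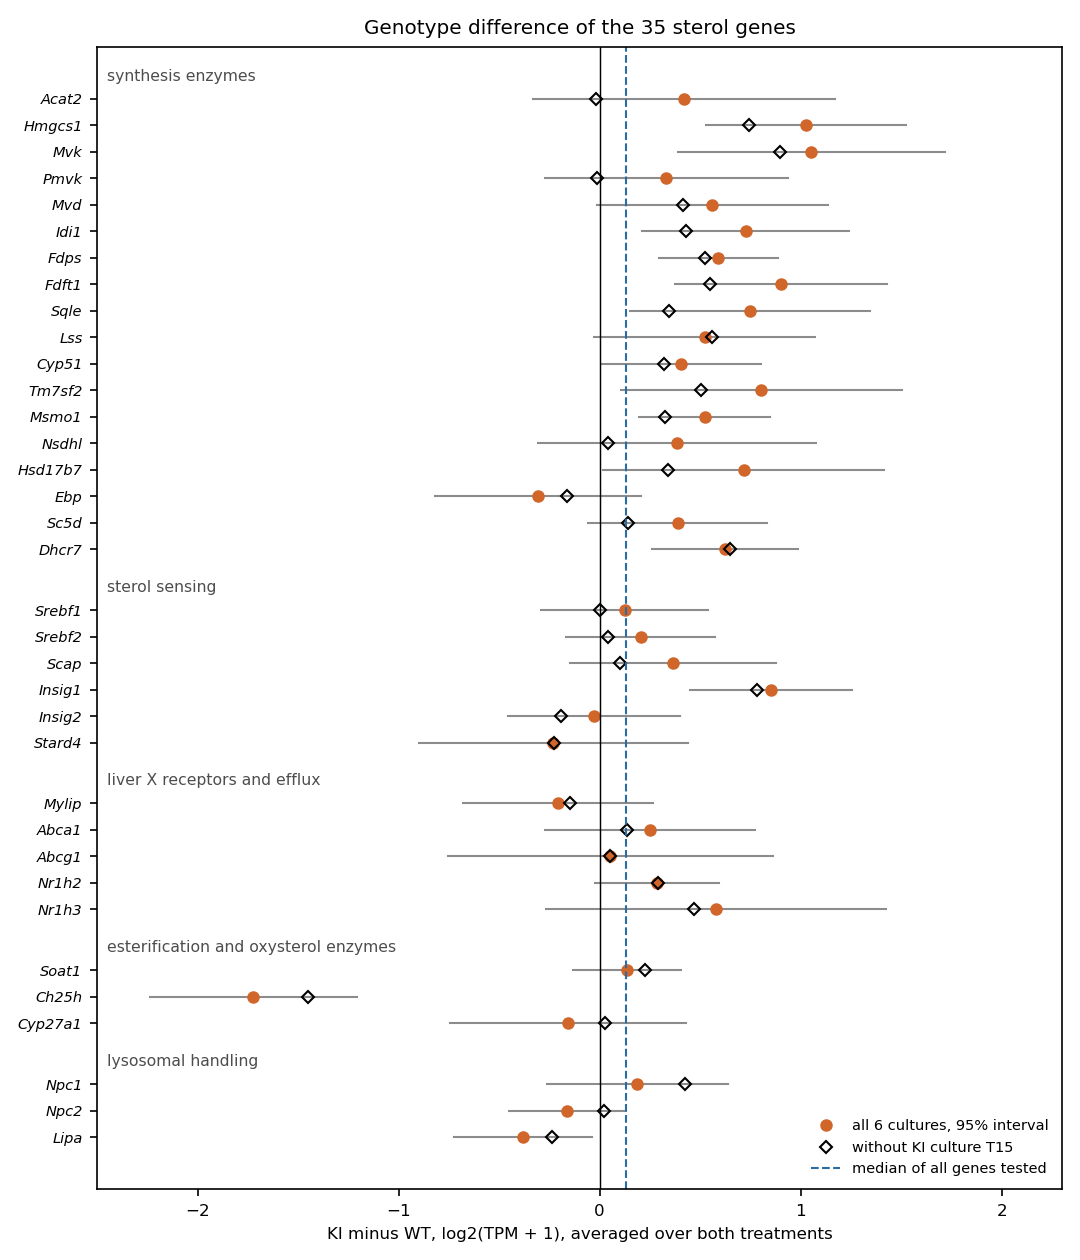
KI minus WT difference of each of the 35 members on log2(TPM + 1), averaged over both treatments and grouped by role; filled points use all 6 cultures with limma's 95% interval as a line, open diamonds leave out KI culture T15, and the dashed line is the median of all 11204 genes. *Ch25h* stood at -1.72, far below the other members, and 17 of 18 synthesis enzymes lay above 0, most of them closer to 0 without T15.

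The summed level of the 18 enzymes was 643 to 807 TPM in untreated WT and 656 to 762 TPM in WT with IL-4. It was 938 to 1500.4 TPM in untreated KI and 840.2 to 1388 TPM in KI with IL-4, with T15 at the top of both. The KI libraries other than T15 were at 938 and 1083 TPM untreated and at 840.2 and 932 TPM with IL-4, still above every WT library. The highest library of an enzyme was a KI library in 17 of 18 and a T15 library in 13. Leaving out *Fdft1*, which shares 774 exonic bases with the much more abundant *Ctsb* on the other strand in libraries not stated to be stranded, the sums were 611 to 771 TPM in WT and 797 to 1402 TPM in KI. Astrocyte markers were highest in T15 and microglial markers lowest in untreated T15, while the mural cell and fibroblast markers separated all KI from all WT libraries, T22 and T32 included, as the enzyme sum did. The summed level of 10 oligodendrocyte lineage markers was 69.5 to 137 TPM in untreated WT and 81.3 to 151 TPM in WT with IL-4, against 146 to 547 TPM in untreated KI and 143 to 377 TPM in KI with IL-4, so untreated libraries did not overlap. Of these markers 8 were highest in T15, and 1 of the 7 tested was higher in KI by limma's F-test. The part of these cell types in the enzyme levels was not tested.

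**Figure D3:**
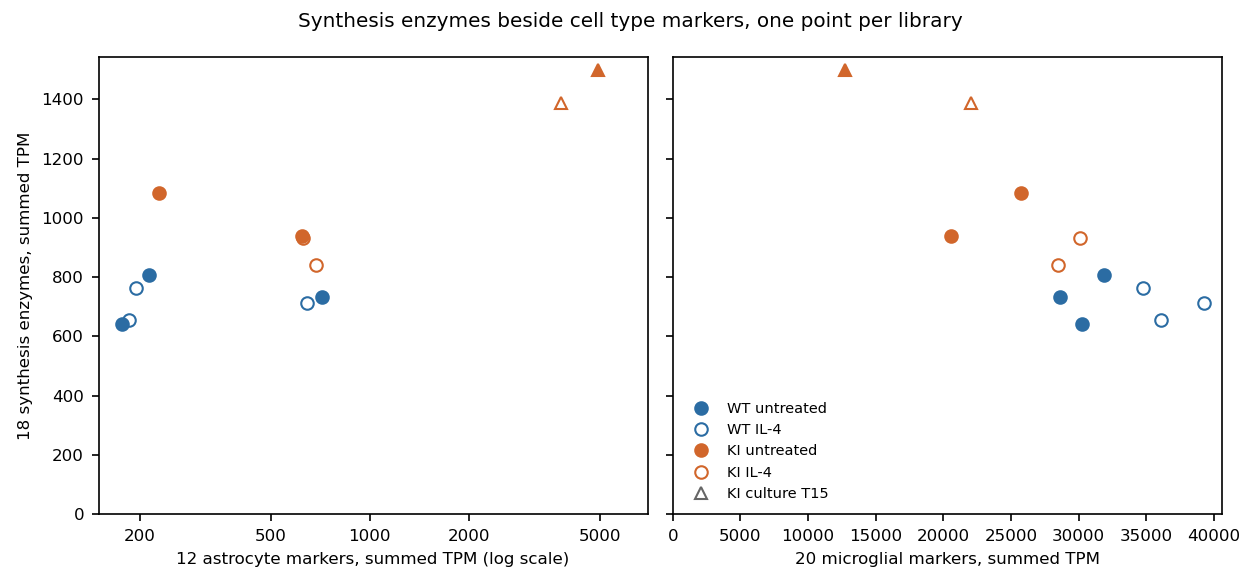
Summed TPM of the 18 synthesis enzymes against the summed TPM of 12 astrocyte markers (left, log scale) and 20 microglial markers (right), 1 point per library, filled untreated and open with IL-4; triangles are KI culture T15. T15 stood apart in astrocyte markers, at 4960 TPM untreated and 3808 TPM with IL-4, and held the highest enzyme sums, and the other 4 KI libraries, from 840.2 to 1083 TPM, also lay above the 6 WT libraries, as they did in mural cell and fibroblast markers, which are not plotted.

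At the entry of the pathway, *Hmgcs1* encodes HMG-CoA synthase. It stood at 80.4, 53.9 and 37.3 TPM in untreated WT and at 178, 103 and 128 TPM in untreated KI. With IL-4 it was at 62.7, 69.6 and 48.6 TPM in WT and at 169, 83.0 and 78.8 TPM in KI. Untreated libraries did not overlap between genotypes and neither did IL-4 libraries, but untreated WT T13 was above KI T32 with IL-4. Its average difference was 1.03 (standard error 0.23, limma's F-test, adjusted p = 0.0699).

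*Fdps* encodes farnesyl diphosphate synthase, at the branch towards sterols and protein prenylation. It stood at 92.6, 115 and 102 TPM in untreated WT, 87.7, 106 and 107 TPM in WT with IL-4, 183, 199 and 119 TPM in untreated KI and 155, 140.2 and 137 TPM in KI with IL-4. All 6 KI libraries were above all 6 WT libraries, narrowly so for untreated T32. The average difference was 0.59 (standard error 0.14, limma's F-test, adjusted p = 0.0877).

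*Dhcr7* encodes 7-dehydrocholesterol reductase, the last step of the Kandutsch-Russell branch. It stood at 18.04, 19.2 and 20.0 TPM in untreated WT, 28.4, 26.8 and 21.8 TPM in WT with IL-4, 30.1, 46.4 and 32.8 TPM in untreated KI and 36.8, 32.6 and 30.7 TPM in KI with IL-4. Again every KI library was above every WT library, and T15 was the lowest of the untreated KI libraries, unlike for most enzymes. The average difference was 0.62 (standard error 0.17, limma's F-test, adjusted p = 0.116), and 0.65 without T15.

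*Insig1*, of the sterol sensing genes, encodes a retention protein of SCAP and is itself a target of SREBP. It stood at 34.1, 20.0 and 35.01 TPM in untreated WT, 34.3, 23.2 and 32.98 TPM in WT with IL-4, 63.0, 71.9 and 58.5 TPM in untreated KI and 55.0, 35.5 and 45.6 TPM in KI with IL-4. The untreated KI mean of 64.5 ± 6.80 TPM (SD, n = 3) was 2.17 times that of untreated WT (29.7 ± 8.42 TPM, SD, n = 3). All KI libraries were above all WT libraries, with KI T22 with IL-4 closest to the WT range, and the average difference was 0.85 (standard error 0.19, limma's F-test, adjusted p = 0.0594). The other sensing genes had differences between -0.23 (*Stard4*, a sterol carrier, at 2.51 to 8.73 TPM) and 0.37 (*Scap*). The SREBP genes themselves differed by 0.13 (*Srebf1*) and 0.20 (*Srebf2*), and by 0.00 and 0.04 without T15, where *Scap* was at 0.10. *Srebf1* turned below 0 after quantile normalization and with either marker score as a covariate, *Srebf2* with the astrocyte score and *Scap* with the microglial score. *Insig2* was at -0.03. Of all 35 members, 8 changed sign with the astrocyte score and 9 with the microglial score.

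All 6 KI libraries lay above all 6 WT libraries in 3 of the 35 members, *Fdps*, *Dhcr7* and *Insig1*, against 2.3% of all genes tested, and in 0 members all were below, against 0.482%. With T15 left out the count was again 3, against 3.07%. In untreated libraries alone 8 of the 35 members had every KI above every WT library, against 13.6% of all genes. Those 8 were *Hmgcs1*, *Idi1* (isopentenyl diphosphate isomerase), *Fdps*, *Lss* (lanosterol synthase), *Msmo1* (methylsterol monooxygenase), *Dhcr7*, *Insig1* and *Nr1h3*. *Idi1* was at 29.6, 48.7 and 36.1 TPM in untreated WT and at 111, 86.2 and 65.3 TPM in untreated KI, whereas with IL-4 the KI range of 30.8 to 93.7 TPM overlapped the WT range of 38.8 to 47.7 TPM. *Msmo1* was the most abundant synthesis enzyme, at 148 to 194 TPM in untreated WT and 224 to 329 TPM in untreated KI. In 2 members, *Ch25h* and *Mylip*, every untreated KI library lay below every untreated WT library, against 4.55%. With IL-4 there were 10 members with every KI library above every WT library, against 12.7% of all genes, and 2 with every KI library below, *Ch25h* and *Stard4*, against 5.79%. The 10 were *Hmgcs1*, *Fdps*, *Fdft1* and *Sqle* (squalene synthase and squalene epoxidase), *Lss*, *Tm7sf2* (a sterol reductase), *Dhcr7*, *Srebf2*, *Scap* and *Insig1*. *Sqle* was at 33.5, 39.96 and 29.1 TPM in WT with IL-4 and at 112, 71.2 and 41.4 TPM in KI with IL-4, close to the WT range in T32.

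A 1-coefficient test of the average genotype difference uses 1 coefficient where the F-test uses 2. By it *Insig1* (adjusted p = 0.0214, limma), *Hmgcs1* (adjusted p = 0.0236), *Fdps* (adjusted p = 0.0275) and *Dhcr7* (adjusted p = 0.0498) were higher in KI, 4 of 35 members against 3.95% of all genes, and *Ch25h* was lower, 1 member against 1.19%. Without T15, whose astrocyte markers were the highest, this test called 0 members higher, against 1.1% of all genes, with 8 members above 0 at an unadjusted p under 0.05, against 10.8% of all genes. The 4 then had differences of 0.78, 0.74, 0.52 and 0.65 and adjusted p-values of 0.0803, 0.0808, 0.106 and 0.104, in the order above.

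Of the remaining enzymes, *Mvk*, mevalonate kinase, had the largest average difference, 1.05 (standard error 0.31, limma's F-test, adjusted p = 0.175), and 0.90 without T15. It stood at 18.3, 7.51 and 6.43 TPM in untreated WT and 25.1, 32.7 and 17.9 TPM in untreated KI, which overlapped at WT T13. *Acat2* and *Pmvk*, at the first and a middle step, were below 0 without T15 (-0.02 each), and *Ebp*, a sterol isomerase, was below 0 in both fits. *Acat2* has a close copy, *Acat3*, at 0.782 TPM, and *Tm7sf2* shares 532 exonic bases with *Vps51*, so their values are less certain.

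Among the liver X receptor genes, the receptors had genotype differences of 0.29 for *Nr1h2* and 0.58 for *Nr1h3*, and of 0.29 and 0.47 without T15, *Nr1h3* being at only 0.817 to 12.2 TPM, with adjusted p-values that missed the threshold. The exporter genes *Abca1* and *Abcg1* had differences of 0.25 and 0.05, the latter below 0 with quantile normalization and with median-ratio scaling. *Mylip*, which encodes the liver X receptor-induced ligase that degrades the LDL receptor, and is named here after its values were seen, was at 55.4, 50.6 and 39.7 TPM in untreated WT and at 30.4, 25.9 and 23.4 TPM in untreated KI, without overlap. With IL-4 it was at 34.3, 16.1 and 21.9 TPM in WT and 23.1, 29.0 and 45.7 TPM in KI, where the genotypes overlapped. Its interaction was 1.27 (standard error 0.44, 95% interval 0.33 to 2.22), with an unadjusted p of 0.0120 and an adjusted p of 1.00 in limma's test, and the WT cultures moved by -0.67, -1.59 and -0.83 with IL-4 against -0.38, 0.16 and 0.94 in KI.

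Except for *Ch25h*, no member passed the F-test for IL-4. *Abcg1*, the exporter of cholesterol to HDL, had the largest average difference above 0. It stood at 1.41, 9.53 and 3.33 TPM in untreated WT and at 15.9, 16.5 and 15.5 TPM in WT with IL-4. In KI it was at 5.07, 7.59 and 2.02 TPM untreated and at 13.6, 13.3 and 19.5 TPM with IL-4. Every IL-4 library was above every untreated library in both genotypes, and the means were 3.36 times higher in WT and 3.16 times in KI. The average difference was 1.71 (standard error 0.38, limma's F-test, adjusted p = 0.133), and by the 1-coefficient test it was past the threshold (adjusted p = 0.0399, limma), 1 of 35 members against 1.14% of all genes, but not without T15 (1.79, adjusted p = 0.0687).

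*Lipa* and *Npc2* were the most abundant of the 35 members, and the lysosomal genes were the only role in which all members had a higher average with IL-4. *Npc2* encodes the soluble carrier that hands cholesterol to NPC1 in the lysosome. It stood at 327, 368 and 341 TPM in untreated WT and at 467, 415 and 444 TPM in WT with IL-4. In KI it was at 219, 379.8 and 305 TPM untreated and at 337, 452 and 467 TPM with IL-4. All 6 cultures were higher with IL-4, by 0.17 to 0.62, although the KI groups overlapped, and the average of 0.43 (standard error 0.14) had an adjusted p of 0.531 in limma's F-test.

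*Lipa* encodes lysosomal acid lipase, which frees cholesterol from its esters. It stood at 486, 689 and 637 TPM in untreated WT and 599, 883 and 808 TPM in WT with IL-4, and at 347, 458 and 521 TPM in untreated KI and 512, 533 and 822 TPM in KI with IL-4. Each of the 6 cultures had more *Lipa* with IL-4, by 0.22 to 0.66, with an average of 0.41 (standard error 0.16, limma's F-test, adjusted p = 0.730). *Npc1*, the membrane partner of NPC2, averaged 0.25 and shares 511 exonic bases with *Rmc1* on the other strand. The summed microglial markers were also higher with IL-4, as given above, with 1 of the 19 tested past the threshold upwards and 1 downwards, and their part in these differences was not tested.

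**Figure D4:**
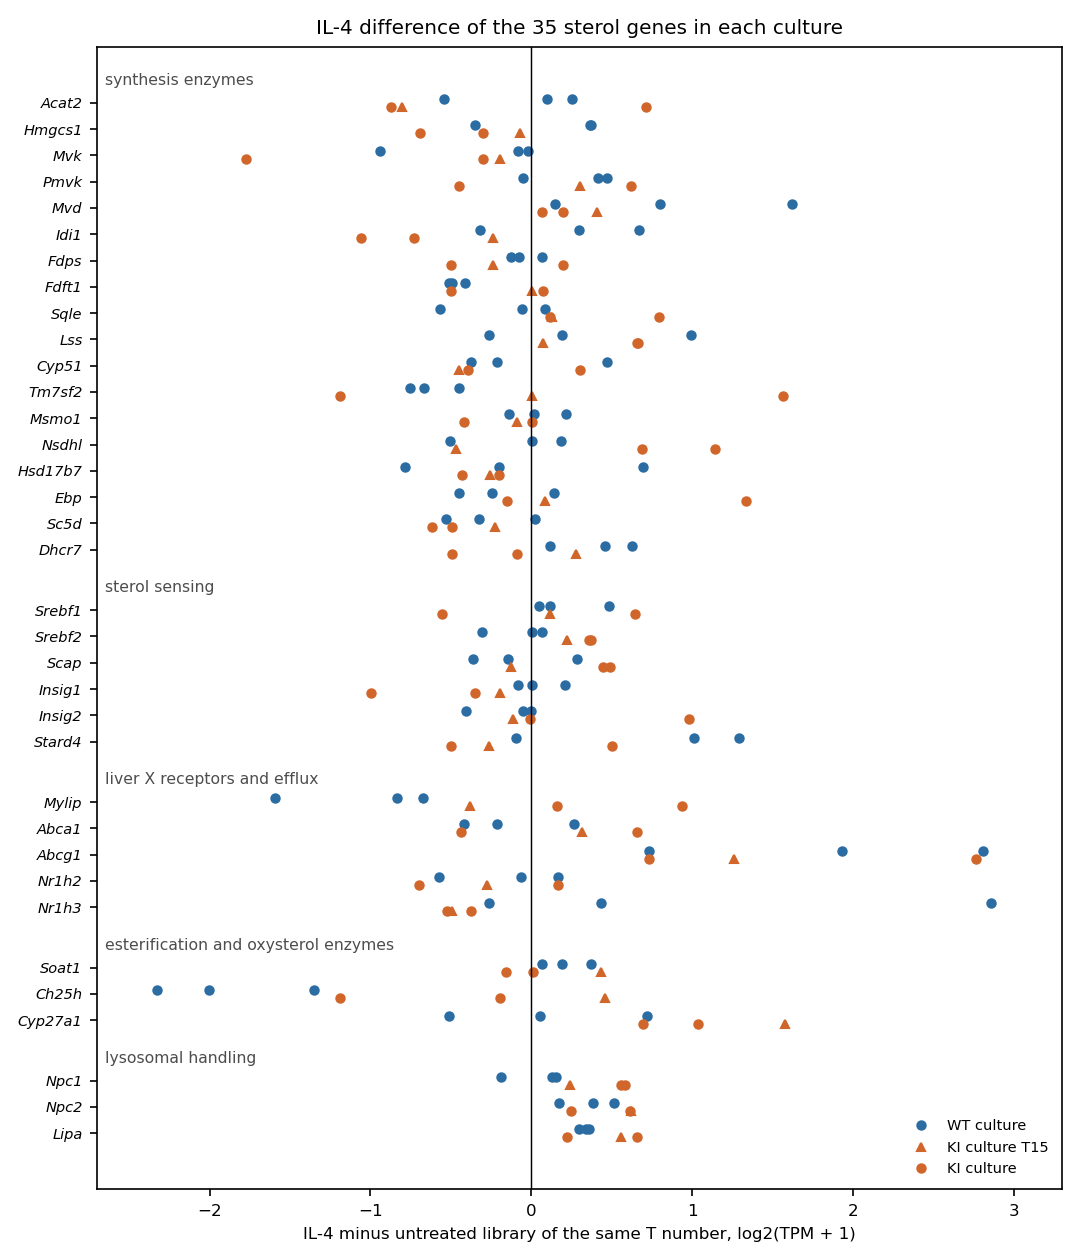
IL-4 minus untreated difference on log2(TPM + 1) for each of the 35 members, 1 point per pair of libraries with the same T number, WT in blue and KI in orange with T15 as triangles. *Abcg1*, *Npc2*, *Lipa* and *Mvd* lay above 0 in all 6 cultures and *Mvk* below 0 in all 6, while *Ch25h* was below 0 in 5, with the 3 WT cultures lowest.

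Of the 35 members, 4 were higher with IL-4 in all 6 cultures, *Abcg1*, *Npc2*, *Lipa* and *Mvd*, against 5.73% of all genes, and 1 was lower in all 6, *Mvk*, against 2.51%. *Mvd*, mevalonate diphosphate decarboxylase, was at 9.08, 14.3 and 7.16 TPM in untreated WT and 16.6, 15.9 and 24.2 TPM in WT with IL-4. In KI it was at 21.8, 12.96 and 23.5 TPM untreated and 29.2, 13.6 and 27.1 TPM with IL-4. Its average difference of 0.54 (standard error 0.27) and that of *Mvk*, -0.55 (standard error 0.31), did not pass, with adjusted p-values of 0.817 and 0.921 in limma's F-test. The synthesis enzymes as a whole had a median IL-4 difference of -0.11 against 0.04 for all genes, with 7 of 18 above 0.

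Of the 3 esterification and oxysterol genes, *Soat1*, which stores cholesterol as esters, was abundant and even, at 208 to 258 TPM in untreated WT, 258 to 296 TPM in WT with IL-4, 212 to 347 TPM in untreated KI and 272 to 311 TPM in KI with IL-4. Its genotype difference was 0.14, with a 95% interval from -0.13 to 0.40, and 0.23 without T15. *Cyp27a1*, the mitochondrial sterol 27-hydroxylase, was at 17.6 to 25.7 TPM in untreated WT and 7.93 to 23.9 TPM in untreated KI, and its genotype difference of -0.16 had an interval from -0.74 to 0.43. That difference turned above 0 without T15 (0.03), with the astrocyte score and in IL-4 libraries alone. Untreated WT thus held about as much *Ch25h* as *Soat1* message, whereas in every other group *Soat1* was several times higher.

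Other genes of the pathway, 29 in all, were taken from a further list. Of these, 23 passed the filter, and 0 of the 23 passed limma's F-test for genotype or for IL-4, with 4 and 2 at an unadjusted p under 0.05, against 16.1% and 7.27% of all genes. The 6 below it were *Vldlr*, *Abcg4*, *Gramd1c*, *Cyp7b1*, *Hsd11b1* and *Elovl6*. *Gpr183*, the receptor for 7α,25-dihydroxycholesterol, which derives from the product of *Ch25h*, was at 56.4, 54.6 and 50.04 TPM in untreated WT and at 20.3, 37.0 and 29.9 TPM in untreated KI. With IL-4 it was at 92.8, 67.7 and 71.7 TPM in WT and 38.5, 60.1 and 47.6 TPM in KI. It was lower in KI in both treatments without overlap (average -0.78, standard error 0.17, limma's F-test, adjusted p = 0.0699, and -0.59, adjusted p = 0.193, without T15) and higher with IL-4 in all 6 cultures. *Apoe*, the lipid carrier of microglia and astrocytes, had a lower level with IL-4 in each of the 6 cultures, with an average difference of -0.44. In WT it was at 49874 to 57962 TPM without IL-4 and at 36456 to 41164 TPM with it, whereas in KI 32317 to 51381 TPM overlapped 26959 to 42843 TPM (limma's F-test, adjusted p = 0.798).

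In 1 of these 23 other genes, *Hsd3b7*, and in 0 of the 35 members, all 3 WT cultures moved one way with IL-4 and all 3 KI cultures the other, against 2.72% of all genes tested. *Hsd3b7*, whose enzyme acts on 7α-hydroxylated oxysterols, was at 22.4, 19.7 and 24.9 TPM in untreated WT and 38.4, 43.2 and 57.2 TPM in WT with IL-4. In KI it was already at 59.8, 40.8 and 57.0 TPM untreated and was at 43.2, 37.0 and 56.4 TPM with IL-4 in T15, T22 and T32, so T32 hardly moved.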

How the data were processed

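Polyadenylated RNA of 12 microglial libraries was sequenced. Reads were trimmed with Trim Galore and quantified by the authors with Salmon, with correction for GC content and position, on the ENSEMBL GRCm38 annotation, and tximport summed transcripts to genes. Deposited by the authors were TPM for each gene and library, corrected for transcript length and library size. The authors tested counts with DESeq2's likelihood-ratio test; counts were not analysed here, so limma 3.58.1 in R 4.3.3 was fitted to log2(TPM + 1), with a variance trend, to the 11204 genes with a mean above 1.5. Identifiers were matched to a GRCm38 annotation, which named 48350 of 48623. Read depth is unknown from TPM, and precision rests on the spread between libraries. The fit was tested on simulated data first.

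Members past the threshold, members with 1 sign in every culture or without overlap between genotypes, and other pathway genes by the same rule are named; other members were described by role, and those named there were picked with their values known. The members and lists were chosen with earlier results of these data known. Of the further pathway list, 3 genes are not reported here and were left out of its counts. Alternatives were other pseudocounts, filters, scalings, no variance trend, single contrasts, marker score covariates, the replicate block and leaving out each culture; a replicate block without T15 was added after seeing the data. Summaries used Python 3.11.15, numpy 2.4.6 and pandas 2.3.3. The RT-qPCR, siRNA and tissue experiments were not analysed here.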

Additional observations from a re-analysis of the deposited data

Results flagged for a closer look

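In *Hsd3b7*, an enzyme of bile acid and oxysterol metabolism and a gene of the further pathway list, the 3 WT cultures all moved one way with IL-4 and the 3 KI cultures all the other way. The interaction, the KI response minus the WT response, was -1.21 (standard error 0.35, unadjusted p = 0.00368) and did not pass limma's test over all genes (adjusted p = 1.00). The differences were 0.75, 1.10 and 1.17 in WT against -0.46, -0.14 and -0.02 in KI, where T32 hardly moved. Microglial and astrocyte markers differed between these libraries, and their part in these values was not tested.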

How the results depend on the processing

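The count of 1 member lower in KI, *Ch25h*, became 0 with no expression filter (adjusted p = 0.1003), with the microglial marker covariate and in IL-4 libraries alone (adjusted p = 0.385), and ranged from 0 to 1 over the fits without 1 culture, being 0 without WT T33 or T43. The count of 0 members higher in KI became 4 in the 1-coefficient test and ranged from 0 to 1 over the fits without 1 culture, *Fdps* passing without KI T32. The count of 1 member lower with IL-4, again *Ch25h*, became 0 with quantile normalization (adjusted p = 0.0687), median-ratio scaling (adjusted p = 0.0570), no expression filter, no variance trend and in KI libraries alone, and ranged from 0 to 1 without 1 culture. The count of 0 members higher with IL-4 became 1 with the replicate block (*Lipa*) and 1 in the 1-coefficient test (*Abcg1*), and ranged from 0 to 0 without 1 culture. Members past the interaction threshold stayed at 0 in every fit run. The *Ch25h* difference kept its sign in all 19 alternatives, between -2.52 and -0.93 for genotype (past the threshold in 14) and between -1.89 and -0.31 for IL-4 (past it in 10). The cause of these losses was not tested, beyond the fewer libraries or added genes of some fits.

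Libraries with the same T number deviated together with a correlation from 0.079 to 0.378. This was above the highest correlation with another number except for T22 (0.121 against 0.188). The main fit did not use the number as a pairing, whereas the differences per culture and the fits without 1 culture did use it. The replicate block, random for genotype at a within-number correlation of 0.198 and fixed for IL-4, gave adjusted p-values of 0.0116 and 0.00803 for *Ch25h*, and without T15 of 0.00968 and 0.00349, and beside *Lipa* (adjusted p = 0.0465, and 0.120 without T15) changed no other call of a member. If the 2 libraries of a number share a culture, genotype p-values without the block are too small. Over all genes, 185 passed for genotype and 100 for IL-4. These were 77 and 240 with the block (38 and 221 without T15), 16 and 61 with no expression filter, 26 and 50 with no variance trend, 69 and 186 with the astrocyte covariate, and 0 and 114 with the microglial covariate. Leaving out 1 culture gave 49 and 143 (KI T15), 182 and 73 (KI T22), 99 and 65 (KI T32), 191 and 56 (WT T13), 3 and 51 (WT T33) or 16 and 46 (WT T43), and the single-treatment and 1-coefficient counts also differed. Depth is unknown, so counting error at low TPM, as for *Abcg1* or *Nr1h3*, could not be judged.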
